A study of Mus musculus with 11 samples.

Results

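The genes described here encode the cytosolic translation initiation and elongation factors of the mouse. Members were the rows of the deposited gene table annotated as protein_coding whose gene name starts with Eif, Eef1 or Eef2, without the eIF2 kinases (Eif2ak) and the factor-modifying enzymes (Eef1ak, Eef2k). This rule gave 50 of the 46078 genes in the table. Of these, 47 passed the filter on low counts and were tested among 16365 genes. The other 3 were Eef1a2, the elongation factor of muscle and neurons, with 4 counts over all libraries, Eif4ebp3, a repressor of the cap-binding factor, with 28 counts, and Eif4e1b, a cap-binding factor of oocytes, with 0 counts. Their level was not detectable at this depth or lay under the filter, with at most 0.336 CPM in any library. A further 8 factor genes carry another annotation in the table and are not members: Eif4a1, Eif4a2, Eif4g1, Eif2a, Eif2d, Eif2b3, Eif2s3x and Eif2s3y.

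A messenger RNA is translated in steps. Cap-binding factors of the eIF4 group open the message, eIF2 brings the initiator tRNA under the control of its exchange factor eIF2B, and eIF3 holds the small ribosomal subunit while eIF1 and eIF1A inspect start codons. eIF5 and eIF5B then complete initiation, eEF1A with its exchange factor eEF1B delivers each aminoacyl-tRNA, eEF2 moves the ribosome along, and eIF5A relieves stalling. In T cells, activation is known to raise translation through mTORC1, a kinase complex that also releases eIF4E from its 4E-BP repressors.

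RNA was measured in T cells sorted from kidneys of wild-type (WT) mice. All mice had been immunised with recombinant mouse myeloperoxidase (MPO) and given low-dose sheep globulin against mouse basement membrane, which starts glomerulonephritis, and kidneys were taken 21 days after the globulin. The 4 sorted groups were CD4+CD127-PD-1+ (n = 2), CD4+CD127+PD-1- (n = 3), CD8+CD127-PD-1+ (n = 3) and CD8+CD127+PD-1- (n = 3), where CD127 is the IL-7 receptor alpha chain and PD-1 is an inhibitory receptor of activated T cells. Each library came from cells pooled from 3 mice, so the spread between libraries is a spread between pools. No group without disease was analysed here, 1 CD4+CD127-PD-1+ sample was dropped at quality control per the labels, and the sources used here give neither age nor sex of the mice.

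Library totals ran from 10.6 to 16.1 M counts (M, counts divided by 1e+06). Levels are given as CPM (the usual normalised read count of edgeR, on TMM-scaled library sizes), and libraries are listed by replicate number. A gene was called where edgeR's quasi-likelihood test gave a Benjamini-Hochberg adjusted p under 0.05 over all tested genes. In whole-population RNA, fewer cells that carry a message and less message per cell cannot be told apart.

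Several measures moved with the sorted state and apply to every state comparison below. All 12 of 12 macrophage marker genes were called higher in CD127-PD-1+ cells of both lineages. Their summed level was 1220 to 2548 CPM in CD4+CD127-PD-1+ against 51.4 to 116 CPM in CD4+CD127+PD-1- libraries, and 1185 to 2354 CPM in CD8+CD127-PD-1+ against 62.2 to 124 CPM in CD8+CD127+PD-1- libraries. Plasmacytoid dendritic cell markers moved the other way, with 4 of 6 lower in the CD4 state comparison (summed 103 to 257 CPM in CD127-PD-1+, 534 to 1148 CPM in CD127+PD-1- libraries) and 3 of 6 lower in the CD8 one (193 to 250 CPM in CD127-PD-1+, 376 to 877 CPM in CD127+PD-1- libraries). All 6 of 6 neutrophil markers were higher in CD8+CD127-PD-1+ cells (41.2 to 288 CPM, against 2.43 to 13.9 CPM in CD8+CD127+PD-1- libraries), and 1 of 6 in CD4+CD127-PD-1+ cells (23.8 to 33.8 CPM, against 3.46 to 5.21 CPM in CD4+CD127+PD-1- libraries). B cell markers were higher for 4 of 6 in CD8+CD127-PD-1+ cells (79.4 to 220 CPM, against 10.7 to 50.2 CPM in CD8+CD127+PD-1- libraries) and for 0 of 6 in CD4 cells. Of 3 tested endothelial markers 2 were lower in both lineages, 1 of 5 NK cell markers was higher in CD8+CD127-PD-1+ cells, and no kidney tubule or red cell marker was called. None of the 10 T cell markers was called between states, with summed levels of 2457 to 3017 CPM in CD4+CD127-PD-1+ against 2453 to 2949 CPM in CD4+CD127+PD-1- libraries, and 1912 to 2689 CPM in CD8+CD127-PD-1+ against 2117 to 2623 CPM in CD8+CD127+PD-1- libraries. Mitochondrial ribosomal RNA took 35.7 to 40.8% of counts in CD8+CD127-PD-1+ against 28.6 to 31.8% in CD8+CD127+PD-1- libraries. The part of these differences in the factor genes' changes was not tested.

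A pair of libraries stood apart for the factors themselves. CD4+CD127-PD-1+ replicate 1 held the lowest level over the 11 libraries for 23 of the 47 members (48.9%), against 10.8% of all tested genes. Its macrophage marker sum was the highest, 2548 CPM. CD8+CD127-PD-1+ replicates 2 and 3 had sums of 2354 and 2337 CPM and each held the lowest level for 0 members. The part of macrophage RNA in these extremes was not tested. CD8+CD127+PD-1- replicate 3 held the highest level for 14 members (29.8%), against 8.07% of all tested genes. Results that rest on either library are given with and without it. Medians of role groups other than elongation were not computed without these libraries.

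**Figure D1:**
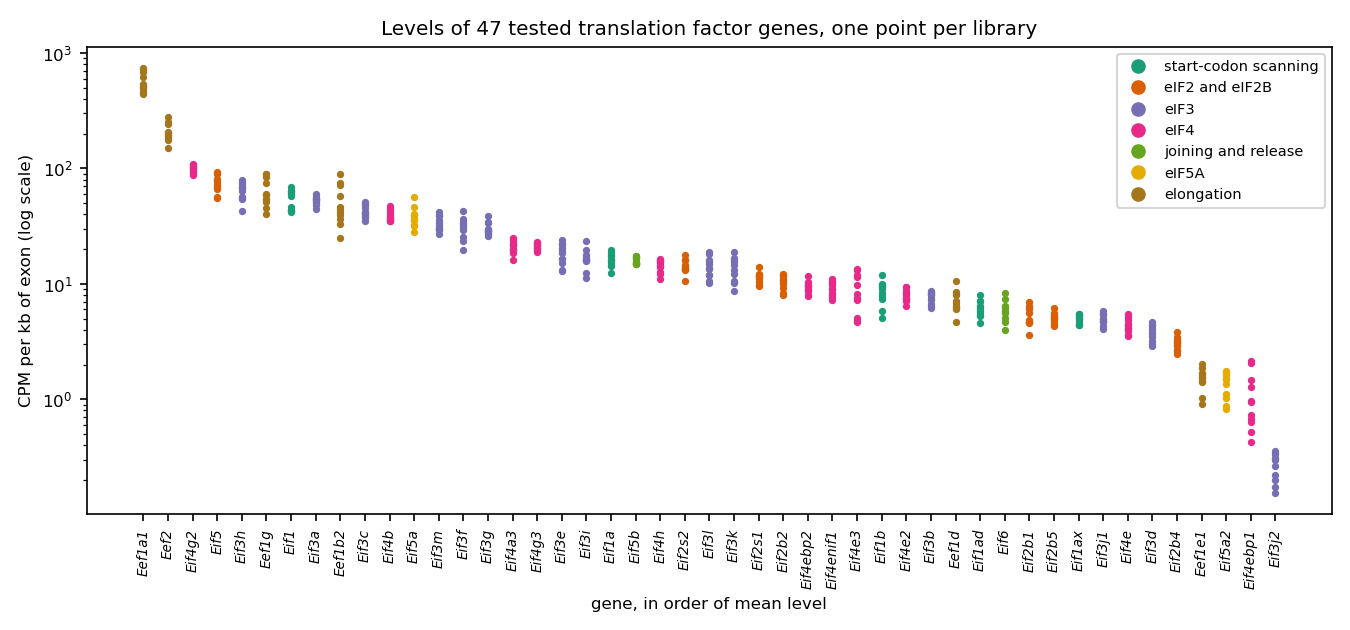
Level of each tested factor gene in CPM per kb of exon (log scale), 1 point per library, in order of mean level and coloured by role. Eef1a1 has the highest mean, 567 CPM per kb, and Eif3j2 the lowest, 0.270 CPM per kb.

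Per kb of exon, Eef1a1 and Eef2 headed the list. Eef1a1, which encodes the tRNA-delivering eEF1A, averaged 567 CPM per kb over the 11 libraries, and Eef2, which encodes the translocating factor eEF2, averaged 208 CPM per kb. Eif4g2, a relative of the eIF4G scaffold, averaged 99.0 CPM per kb and Eif5, which triggers GTP hydrolysis by eIF2, averaged 75.5 CPM per kb. The other elongation genes ran from 63.8 CPM per kb for Eef1g to 1.51 CPM per kb for Eef1e1. At the low end of the tested members were Eif5a2 with 1.37, Eif4ebp1 with 1.08 and Eif3j2 with 0.270 CPM per kb, as the plot of levels by gene shows. The members' summed level, a level over messages of different length, was 5530 to 6215 CPM in CD4+CD127-PD-1+, 6335 to 6852 CPM in CD4+CD127+PD-1-, 6386 to 6509 CPM in CD8+CD127-PD-1+ and 7475 to 7978 CPM in CD8+CD127+PD-1- libraries. In each lineage the CD127-PD-1+ libraries lay below the CD127+PD-1- libraries without overlap, and the lowest and the highest sum were those of the libraries named above as standing apart. Abundant genes weigh most in this sum, with means of 1415 CPM for Eef1a1 and 1006 CPM for Eif4g2. By gene, 27 of 47 log2 fold changes were negative and 20 were positive in each state comparison.

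In CD4 cells, 4 of 47 members were lower in CD127-PD-1+ than in CD127+PD-1- cells and none was higher. These were Eif1, Eif5, Eef1b2 and Eef1g. Lower members were 8.51% of those tested, against 4.87% of all tested genes that were lower, while 6.81% of all tested genes were higher and 11.7% were called in either direction. The median log2 fold change was -0.05 over the members and 0.02 over all tested genes. Without CD4+CD127-PD-1+ replicate 1 only Eif1 remained called, and the members' median was 0.07. The calls over all genes in that fit numbered 976 of 17389 tested, against 1912 of 16365 with every library. Without CD4+CD127+PD-1- replicate 2, 2 members were lower. Libraries of the groups did not overlap for 10 members that were lower (19.4% of all tested genes) and 5 that were higher (21.3%) in CD127-PD-1+ cells.

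In CD8 cells, 6 of 47 members were lower and 3 were higher in CD127-PD-1+ than in CD127+PD-1- cells. Lower were Eef1a1, Eef1b2, Eef1g, Eef2, Eif1 and Eif3e, and higher were Eif4e3, Eif4ebp1 and Eif5a2. The members called were 19.1%, against 15.6% of all tested genes (9.05% higher, 6.56% lower). Lower members were 12.8% of those tested and higher members 6.38%. The median was -0.12 over the members and 0.01 over all tested genes. The members' median was -0.07 without CD8+CD127+PD-1- replicate 3 and -0.08 without CD8+CD127-PD-1+ replicate 1. With upper-quartile scaling it was -0.22, beside -0.09 over all tested genes. Of the called genes among all those tested, 58% were higher, and with upper-quartile scaling 45.5% were higher and 11 members were lower. Without CD8+CD127-PD-1+ replicate 3, 3 members were lower and none was higher. Libraries of the groups did not overlap for 13 members that were lower (16.4% of all tested genes) and 6 that were higher (18%). The count of higher members was 0 without CD8+CD127+PD-1- replicate 2 and 1 without CD8+CD127-PD-1+ replicate 2, CD8+CD127+PD-1- replicate 1 or CD8+CD127+PD-1- replicate 3. With a block for the replicate number in the sample descriptions, 0 members were higher and 5 were lower.

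**Figure D2:**
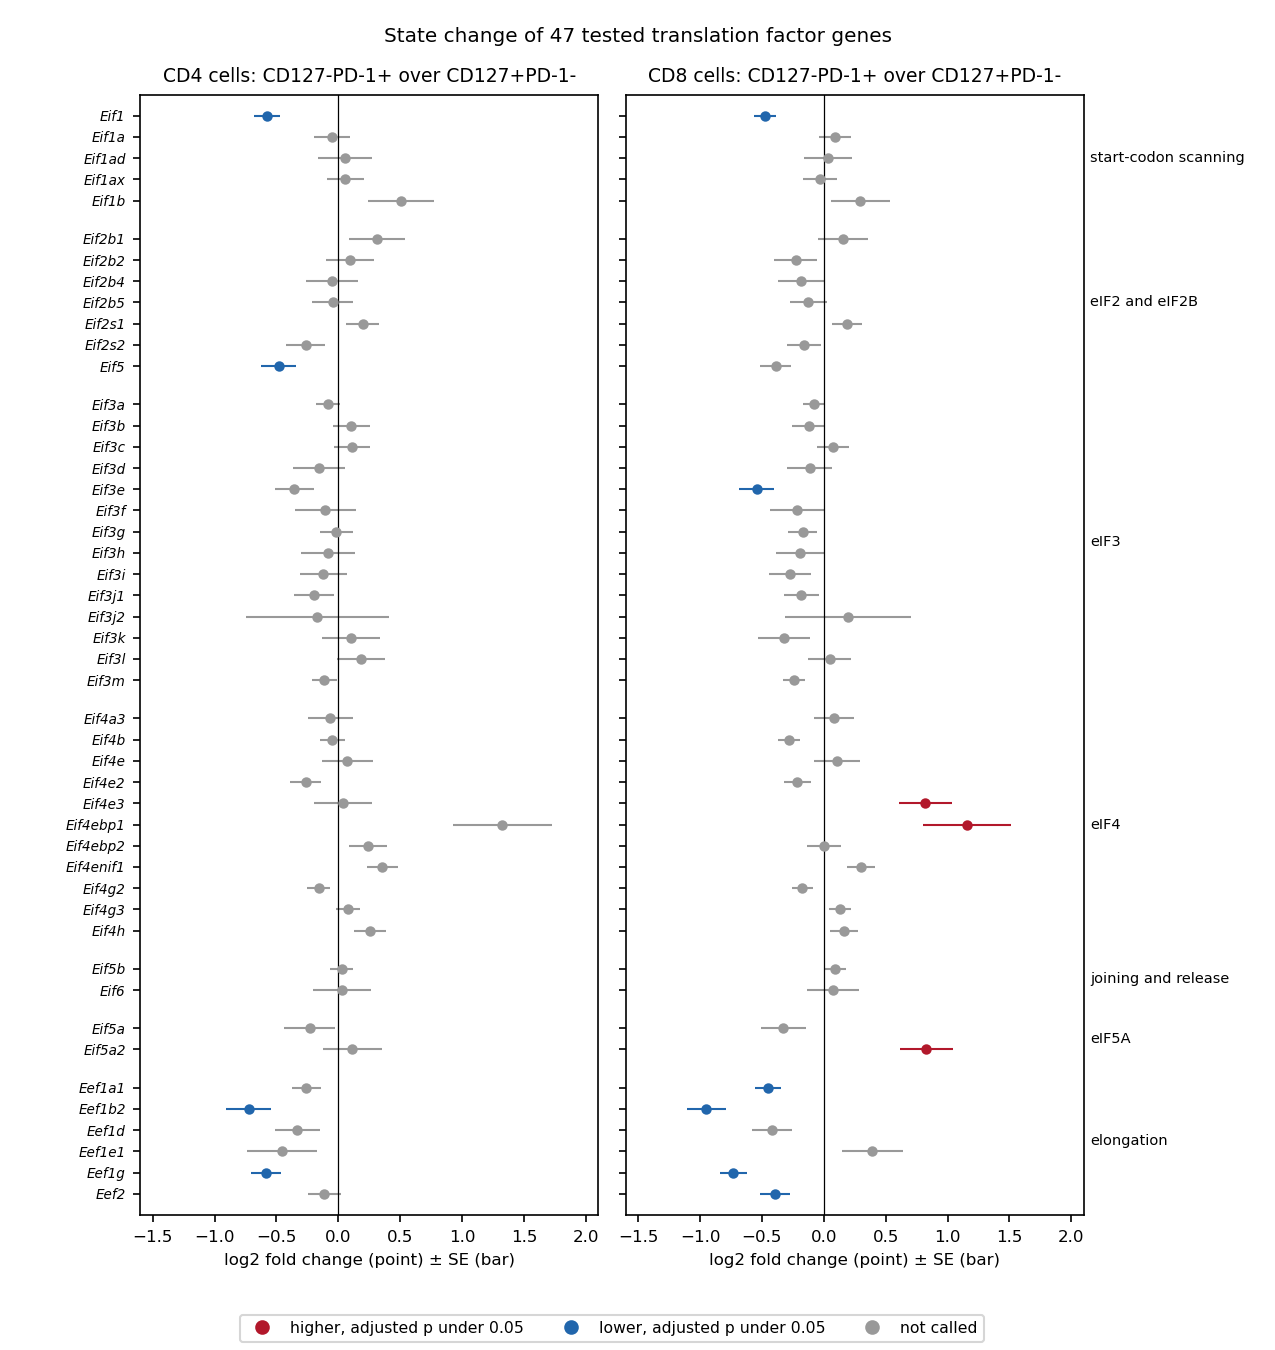
Log2 fold change of each tested factor gene between CD127-PD-1+ and CD127+PD-1- cells, in CD4 (left) and CD8 (right) cells, with genes grouped by role; points are model estimates and bars are standard errors. Eef1b2, Eef1g and Eif1 are coloured as lower in both panels.

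The elongation group had the lowest medians of the role groups in both state comparisons, -0.39 in CD4 cells and -0.44 in CD8 cells over 6 tested genes. The group was set by gene name. It includes Eef1e1, which encodes a synthetase scaffold and had log2 fold changes of -0.45 in CD4 and 0.39 in CD8 cells. In CD4 cells 2 of 6 were lower and in CD8 cells 4 of 6, and none was higher in either. Without CD4+CD127-PD-1+ replicate 1, none of the 6 was called in CD4 cells and their median was -0.20, and without CD4+CD127+PD-1- replicate 2, 1 was called. In CD8 cells the count was 2 without CD8+CD127-PD-1+ replicate 3 and 3 or 4 without any other library.

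The sequences at the annotated transcription starts of called factors are shown beside a known motif. Messages of ribosomal proteins and elongation factors are known to start with a C and an unbroken run of pyrimidines. This run is the 5′ terminal oligopyrimidine (TOP) motif, through which mTORC1 and Larp1 control the translation of these messages. Whether the annotated starts are the 5′ ends of the messages in these cells was not tested. Each window runs from 5 bases before to 25 bases from the annotated start onward, 5′ to 3′ (RefSeq, build GRCm38.p6), with the longest run of C and T in capitals. Of the 50 members 37 matched the promoter table, among them 7 of the 11 called in any comparison. Eef1g, Eif3e, Eif4e3 and Eif4ebp1 had no entry.
Eef1a1, chr9:78481700-78481729, minus strand: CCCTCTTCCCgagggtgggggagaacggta
Eef2, chr10:81176626-81176655, plus strand: cgggcgttgacgtcagcggTCTCTTCCgcc
Eef1b2, chr1:63176826-63176855, plus strand: gTTCCgccggaagtagccgaggccttgcgt
Eif3m, chr2:105017003-105017032, minus strand: ggcgtgtttctggatcggagcgTCTTCCgc
Eif1, chr11:100319944-100319973, plus strand: cacaggggcggCTatataagtgaatacagg
Eif5, chr12:111538096-111538125, plus strand: tgcatgcgagCCaatgacaagagaagttgg
Eif5a2, chr3:28781272-28781301, plus strand: ggCTgggcgggccggggcggggagccgggt
Eif3f, chr7:108934410-108934439, plus strand: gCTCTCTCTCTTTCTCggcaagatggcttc

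Eef1a1 and Eef2 carry runs of 10 and 8 pyrimidines in their windows. The Eef1a1 run begins before the annotated start and the Eef2 run begins after it. The longest runs of Eif1, Eif5 and Eif5a2 are 2 bases long. Eif3f, an eIF3 subunit that was not called, is shown for the longest run among the members, 15 bases, and was chosen after the windows were read. A run of at least 8 bases of C or T, read on the gene's strand only, was found at 10 of 49 member starts (20.4%), at 20 of 60 starts of cytosolic ribosomal proteins (33.3%), at 10.5% of the starts of tested genes and at 3392 of 32851 starts in the table (10.3%). Such a run describes these letters and is not evidence of a working motif.

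**Figure D3:**
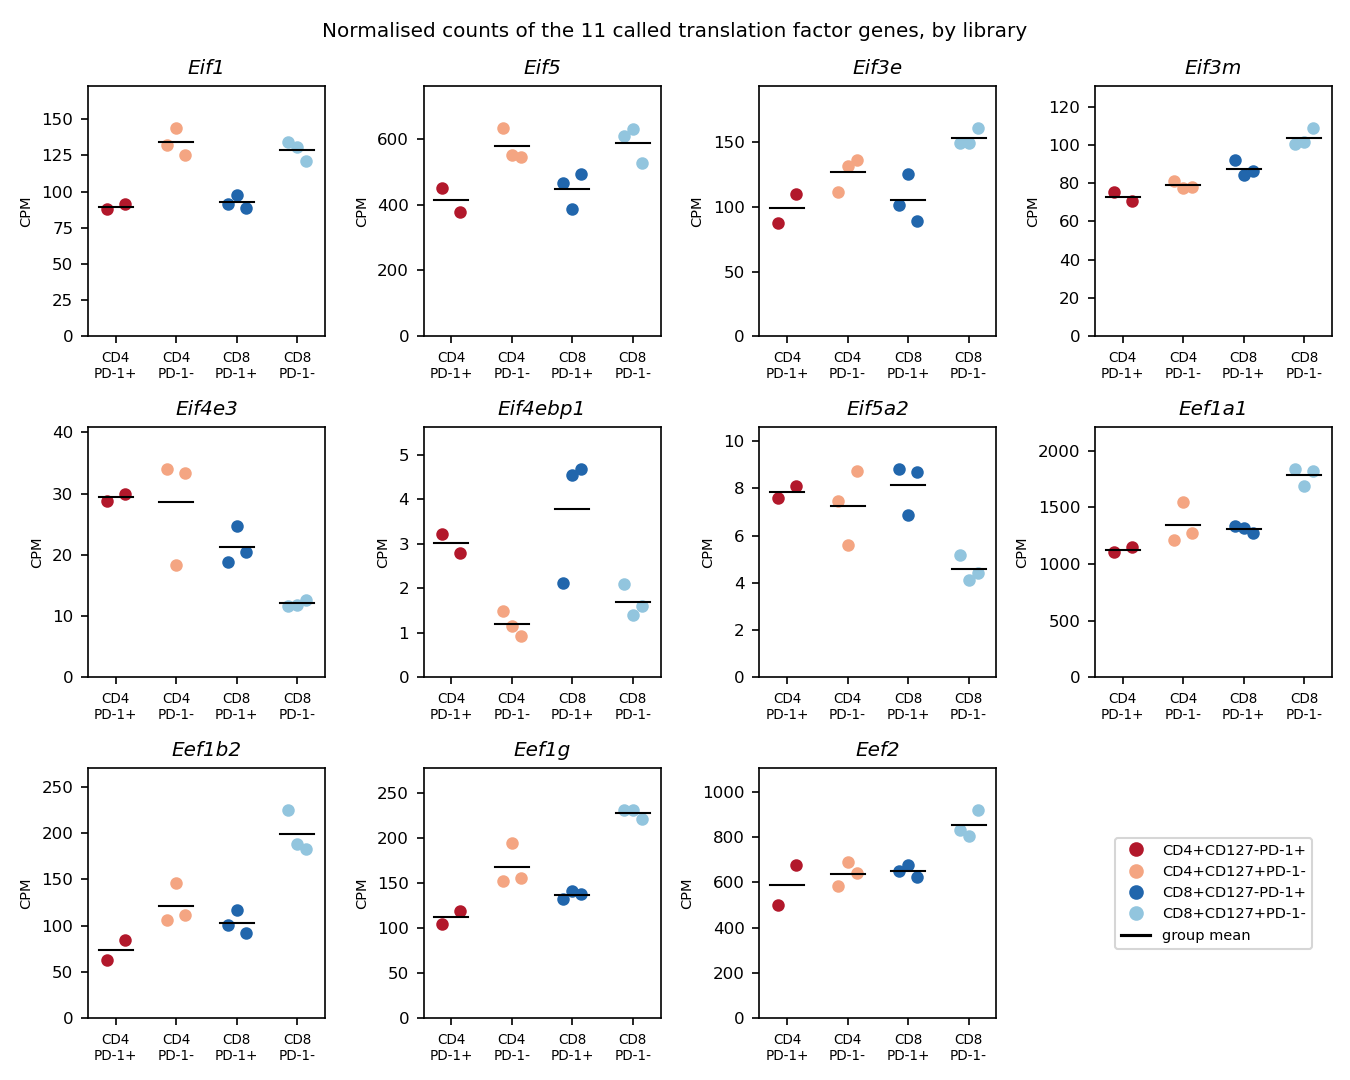
Level in CPM of the 11 factor genes called in any comparison, 1 point per library by group, with the group mean as a line. Eef1b2 and Eef1g are lowest in CD4+CD127-PD-1+ and highest in CD8+CD127+PD-1- libraries, and Eif4e3 is lowest in CD8+CD127+PD-1- libraries.

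Eef1b2 (ENSMUSG00000025967, chromosome 1, 63176825 to 63180486, GRCm38) encodes eEF1B alpha, which recharges eEF1A with GTP. It had 63.0 and 84.0 CPM in CD4+CD127-PD-1+, against 106, 146 and 112 CPM in CD4+CD127+PD-1- libraries. CD8 cells had 100.4, 116 and 91.8 CPM in CD127-PD-1+, against 225, 188 and 183 CPM in CD127+PD-1- libraries. Every CD127-PD-1+ library was below every CD127+PD-1- library of its lineage. The log2 fold change was -0.72 in CD4 cells (SE 0.18, adjusted p = 0.0239, edgeR) and -0.95 in CD8 cells (SE 0.158, adjusted p = 0.00215). The CD8 call held in all 20 alternative settings. The CD4 call was lost (adjusted p = 0.177) when CD4+CD127-PD-1+ replicate 1 was left out, when CD4+CD127+PD-1- replicate 2 was left out (0.0772) and when the fit held only the compared groups (0.0601).

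Eef1g (ENSMUSG00000071644, chromosome 19, 8967041 to 8978479) encodes eEF1B gamma, the structural subunit of the same exchange factor. Its levels were 105 and 119 CPM in CD4+CD127-PD-1+, against 153, 195 and 156 CPM in CD4+CD127+PD-1- libraries. In CD8 cells they were 132, 141 and 138 CPM in CD127-PD-1+, against 231, 232 and 221 CPM in CD127+PD-1- libraries, and neither pair of groups overlapped. The log2 fold changes were -0.58 (SE 0.123, adjusted p = 0.0113, edgeR) and -0.73 (SE 0.109, adjusted p = 0.0011). The CD4 call was lost (adjusted p = 0.0928) when CD4+CD127-PD-1+ replicate 1 was left out and when the fit held only the compared groups (0.0563), and the CD8 call held in all 20 settings. Eef1d, the remaining exchange subunit, had log2 fold changes of -0.33 (adjusted p = 0.285) in CD4 and -0.42 (adjusted p = 0.101) in CD8 cells and was not called.

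Eef1a1 (ENSMUSG00000037742, chromosome 9, 78478449 to 78489151) had 1106 and 1146 CPM in CD4+CD127-PD-1+, against 1211, 1550 and 1275 CPM in CD4+CD127+PD-1- libraries. In CD8 cells it had 1331, 1316 and 1271 CPM in CD127-PD-1+, against 1840, 1691 and 1822 CPM in CD127+PD-1- libraries. The CD8 groups were far apart for their narrow spread, and the CD4 groups did not overlap either. It was lower in CD8 cells (log2 fold change -0.45, SE 0.102, adjusted p = 0.0117, edgeR) and not called in CD4 cells (-0.26, SE 0.114, adjusted p = 0.182). Without CD8+CD127-PD-1+ replicate 3 the CD8 call was lost (adjusted p = 0.0518), and it held in 18 of the 20 alternative settings. Eef1a1 has many processed copies in the genome, so the assignment of its reads is uncertain.

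Eef2 (ENSMUSG00000034994, chromosome 10, 81176631 to 81182498) had 648, 675 and 623 CPM in CD8+CD127-PD-1+, against 833, 807 and 921 CPM in CD8+CD127+PD-1- libraries, without overlap. CD4 cells had 501 and 679 CPM in CD127-PD-1+, against 585, 689.5 and 639 CPM in CD127+PD-1- libraries, and these overlapped. The log2 fold change was -0.40 (SE 0.119, adjusted p = 0.0432, edgeR) in CD8 cells and -0.11 (SE 0.133, adjusted p = 0.655) in CD4 cells. The CD8 call was near the threshold and held in only 3 of the 11 fits that left out a library, those without CD4+CD127-PD-1+ replicate 1, CD4+CD127-PD-1+ replicate 2 or CD4+CD127+PD-1- replicate 2, with adjusted p-values of up to 0.139 in the others. Eef1e1, which bears the eEF1 name but encodes a scaffold of the aminoacyl-tRNA synthetase complex, had log2 fold changes of -0.45 (adjusted p = 0.349) in CD4 and 0.39 (adjusted p = 0.324) in CD8 cells.

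Among the start-codon scanning factors, Eif1 (ENSMUSG00000035530, chromosome 11, 100319885 to 100322096) was called in both lineages. It encodes eIF1, which keeps the scanning ribosome from stopping at wrong start codons. Eif1 had 88.3 and 91.1 CPM in CD4+CD127-PD-1+, against 133, 144 and 125 CPM in CD4+CD127+PD-1- libraries. CD8 levels were 91.4, 97.8 and 88.9 CPM in CD127-PD-1+, against 134, 131 and 121 CPM in CD127+PD-1- libraries. The CD4 and CD8 libraries of a state lay together, and the states lay apart in both lineages. The log2 fold changes were -0.58 (SE 0.105, adjusted p = 0.0056, edgeR) and -0.475 (SE 0.0924, adjusted p = 0.00529), and both calls held in all 20 alternative settings.

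Its near copy Eif1b, of the same biochemical family, had 11.2 and 10.5 CPM in CD4+CD127-PD-1+, against 5.72, 8.37 and 8.84 CPM in CD4+CD127+PD-1- libraries. In CD8 cells it had 11, 13.4 and 9.45 CPM in CD127-PD-1+, against 10.2, 6.52 and 10.9 CPM in CD127+PD-1- libraries. The CD4 groups did not overlap and the CD8 groups did, and neither difference was called (log2 fold changes 0.50, adjusted p = 0.263, and 0.29, adjusted p = 0.455, edgeR). Reads shared by Eif1 and Eif1b may be split between them by the authors' counting. Eif1a, Eif1ax and Eif1ad were not called either, with log2 fold changes of -0.05 to 0.06 in CD4 and -0.03 to 0.09 in CD8 cells.

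In the eIF2 group, Eif5 (ENSMUSG00000021282, chromosome 12, 111538016 to 111546752) had 449 and 377 CPM in CD4+CD127-PD-1+, against 634, 551 and 546 CPM in CD4+CD127+PD-1- libraries. CD8 cells had 467, 386 and 492 CPM in CD127-PD-1+, against 608, 629 and 525 CPM in CD127+PD-1- libraries, and the groups overlapped in neither lineage. It was lower in CD4 cells (log2 fold change -0.48, SE 0.139, adjusted p = 0.0436, edgeR) and missed the threshold in CD8 cells (-0.39, SE 0.122, adjusted p = 0.0518). Over the 20 alternative settings the CD8 difference was called in 11 and the CD4 difference in 10. The CD4 call held without CD8+CD127-PD-1+ replicate 2 or CD8+CD127+PD-1- replicate 3 and was lost without any 1 of the other 9 libraries, with adjusted p-values of 0.0504 to 0.258.

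The other 6 genes of the eIF2 group were called in neither lineage, with log2 fold changes of -0.26 (Eif2s2) to 0.31 (Eif2b1) in CD4 cells and -0.23 (Eif2b2) to 0.19 (Eif2s1) in CD8 cells. Eif2s1, Eif2s2 and the sex-linked pair Eif2s3x and Eif2s3y encode subunits of eIF2, and Eif2b1 to Eif2b5 those of its exchange factor. Eif2s3x and Eif2s3y are not members under the rule and share much of their sequence. Eif2s3x had 11.4 and 16.9 CPM in CD4+CD127-PD-1+ and 14.8, 17.4 and 16.4 CPM in CD4+CD127+PD-1- libraries, with 15.4, 16.7 and 14.8 CPM in CD8+CD127-PD-1+ and 16.0, 16.1 and 17.9 CPM in CD8+CD127+PD-1- libraries. Groups overlapped in both lineages. Eif2s3y was called in neither state comparison (adjusted p = 0.31 and 0.453, edgeR).

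The eIF3 complex was represented by 14 tested genes, of which none was called in CD4 cells and 1, Eif3e, was lower in CD8 cells. The medians of -0.10 in CD4 and -0.18 in CD8 cells were below those of all tested genes. In that order, 10 of 14 and 11 of 14 log2 fold changes were negative. These values were not computed without CD4+CD127-PD-1+ replicate 1, where the CD4 median over all members was 0.07 instead of -0.05. Eif3e (ENSMUSG00000022336, chromosome 15, 43250058 to 43282719) encodes a subunit of the complex. It had 102, 125 and 88.8 CPM in CD8+CD127-PD-1+, against 149, 149.6 and 161 CPM in CD8+CD127+PD-1- libraries, without overlap. CD4 cells had 87.5 and 110.1 CPM in CD127-PD-1+, against 111, 132 and 136 CPM in CD127+PD-1- libraries, and their nearest values lay close together. The CD8 difference was called (log2 fold change -0.54, SE 0.139, adjusted p = 0.0218, edgeR) and the CD4 one was not (-0.36, SE 0.157, adjusted p = 0.177). Leaving out CD8+CD127-PD-1+ replicate 1 or 3 or CD8+CD127+PD-1- replicate 2 or 3 lost the CD8 call, with adjusted p-values of 0.0621, 0.0924, 0.0524 and 0.0544 in that order. Eif3a, the scaffold subunit and the eIF3 gene with the highest count level, had 390.1 and 443 CPM in CD4+CD127-PD-1+ and 425, 436 and 465 CPM in CD4+CD127+PD-1- libraries. It had 475, 485 and 467 CPM in CD8+CD127-PD-1+ and 528, 476 and 506 CPM in CD8+CD127+PD-1- libraries. The states overlapped in both lineages, and Eif3a was not called (adjusted p = 0.646 and 0.588).

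The eIF4 group of cap-binding factors, helicase partners and repressors held members called higher. None of 11 tested genes was called in CD4 cells, and 2, Eif4e3 and Eif4ebp1, were higher in CD8+CD127-PD-1+ cells. The group's medians were 0.07 and 0.11. Eif4e3 (ENSMUSG00000093661, chromosome 6, 99625135 to 99666771) encodes a divergent cap-binding protein of the eIF4E family. Levels of Eif4e3 were 18.8, 24.7 and 20.4 CPM in CD8+CD127-PD-1+, against 11.7, 11.9 and 12.7 CPM in CD8+CD127+PD-1- libraries. CD4 cells had 28.8 and 30.0 CPM in CD127-PD-1+, against 34.1, 18.4 and 33.3 CPM in CD127+PD-1- libraries. The CD8 groups were separate, and both CD4+CD127-PD-1+ values lay inside the range of CD4+CD127+PD-1- libraries. In CD8 cells the fold was 1.76 (log2 fold change 0.82, SE 0.215, adjusted p = 0.0239, edgeR) and in CD4 cells the log2 fold change was 0.04 (SE 0.234, adjusted p = 0.937). The difference between these state changes was -0.78 (SE 0.319, unadjusted p = 0.0317, adjusted p = 0.875) and was not called. The CD8 call was lost without CD8+CD127-PD-1+ replicate 2 (adjusted p = 0.0897) or 3 (0.0561) and without CD8+CD127+PD-1- replicate 1 (0.0707) or 2 (0.074).

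The relatives of Eif4e3 were not called. Eif4e, the main cap-binding protein, had 21 and 32.8 CPM in CD4+CD127-PD-1+ and 23.4, 26.6 and 26.9 CPM in CD4+CD127+PD-1- libraries, and 25, 31.1 and 25 CPM in CD8+CD127-PD-1+ and 24.2, 21.8 and 29.3 CPM in CD8+CD127+PD-1- libraries. The groups overlapped in both lineages, and the log2 fold change was 0.07 in CD4 (SE 0.205, adjusted p = 0.872, edgeR) and 0.11 in CD8 cells (SE 0.183, adjusted p = 0.756). Eif4e2, which encodes a repressive cap-binding protein, was not called either, at -0.26 in CD4 (SE 0.125, adjusted p = 0.212) and -0.21 in CD8 cells (SE 0.111, adjusted p = 0.227).

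Eif4ebp1 (ENSMUSG00000031490, chromosome 8, 27260329 to 27276674) encodes 4E-BP1, which holds eIF4E inactive until mTORC1 phosphorylates it. Its levels were low: 3.23 and 2.79 CPM in CD4+CD127-PD-1+, against 1.49, 1.15 and 0.93 CPM in CD4+CD127+PD-1- libraries. In CD8 cells it had 2.12, 4.56 and 4.69 CPM in CD127-PD-1+, against 2.09, 1.39 and 1.59 CPM in CD127+PD-1- libraries. These rest on 29 to 63 counts per CD127-PD-1+ library and 10 to 31 counts per CD127+PD-1- library. No libraries overlapped in either lineage, although CD8+CD127-PD-1+ replicate 1 was just above the highest CD8+CD127+PD-1- library. It was called higher in CD8 cells (fold 2.23, log2 fold change 1.16, SE 0.353, adjusted p = 0.0462, edgeR) and not in CD4 cells, where the estimate was larger (log2 fold change 1.32, SE 0.401, adjusted p = 0.0536). Of the 11 fits without a library, the CD8 call held only in that without CD8+CD127-PD-1+ replicate 1 (adjusted p = 0.0129), and the other 10 gave adjusted p-values of 0.0542 to 0.163. Eif4ebp2, the related repressor with higher counts, had 55.0 and 68.1 CPM in CD4+CD127-PD-1+ against 46.3, 50.3 and 59.7 CPM in CD4+CD127+PD-1- libraries, and 52.5, 55.0 and 50.7 CPM in CD8+CD127-PD-1+ against 45.1, 57.4 and 55.6 CPM in CD8+CD127+PD-1- libraries. It overlapped in both lineages and was not called (adjusted p = 0.362 and 0.996).

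Eif4g2, the eIF4 member with the highest count level, had 884 and 993 CPM in CD4+CD127-PD-1+ against 1055, 1016 and 1068 CPM in CD4+CD127+PD-1- libraries, and 955, 923 and 967 CPM in CD8+CD127-PD-1+ against 1026, 1080 and 1104 CPM in CD8+CD127+PD-1- libraries. The groups did not overlap in either lineage, but the differences were small (log2 fold changes -0.16 and -0.17) and not called (adjusted p = 0.327 and 0.189, edgeR). Eif4b, which encodes a helicase cofactor, had a log2 fold change of -0.28 (SE 0.0901, adjusted p = 0.056) in CD8 cells. Eif4enif1, which encodes the transporter that carries eIF4E to the nucleus, had positive log2 fold changes of 0.36 (adjusted p = 0.0967) in CD4 and 0.30 (adjusted p = 0.0949) in CD8 cells and was not called. The helicase genes Eif4a1 and Eif4a2 are not members under the rule. Eif4a2 had 558 and 471 CPM in CD4+CD127-PD-1+ against 761, 778 and 689 CPM in CD4+CD127+PD-1- libraries, and 579, 469 and 544 CPM in CD8+CD127-PD-1+ against 749, 897 and 639 CPM in CD8+CD127+PD-1- libraries. Both pairs of groups were apart, and Eif4a2 was lower in CD4 (log2 fold change -0.53, adjusted p = 0.0427) and CD8 cells (-0.52, adjusted p = 0.0215). The CD4 call was lost without any 1 CD4 library, CD8+CD127-PD-1+ replicate 3 or CD8+CD127+PD-1- replicate 1 (0.0591 to 0.242), and the CD8 call without CD8+CD127-PD-1+ replicate 2 or 3 or CD8+CD127+PD-1- replicate 1 or 2 (0.0502 to 0.0899). Eif4a1 had log2 fold changes of -0.43 (adjusted p = 0.085) and -0.38 (adjusted p = 0.0685), and reads of the pair may be shared.

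Of the eIF5A pair, Eif5a2 was called and Eif5a was not. Both encode a factor that helps the ribosome past sequences where it stalls and that carries the amino acid hypusine. Eif5a2 (ENSMUSG00000050192, chromosome 3, 28781276 to 28798846) had 8.84, 6.87 and 8.71 CPM in CD8+CD127-PD-1+, against 5.19, 4.11 and 4.44 CPM in CD8+CD127+PD-1- libraries, without overlap. CD4 cells had 7.60 and 8.11 CPM in CD127-PD-1+, against 7.46, 5.61 and 8.75 CPM in CD127+PD-1- libraries, with overlap. The fold was 1.78 in CD8 cells (log2 fold change 0.83, SE 0.215, adjusted p = 0.0226, edgeR), and the CD4 log2 fold change was 0.11 (SE 0.235, adjusted p = 0.818). The difference of the state changes was -0.71 (SE 0.319, unadjusted p = 0.0458, adjusted p = 0.887). Without CD8+CD127-PD-1+ replicate 1 or 3 or CD8+CD127+PD-1- replicate 2 or 3 the CD8 call was lost, with adjusted p-values of 0.0637, 0.0783, 0.0831 and 0.0541 in that order. Eif5a had 67.4 and 86.9 CPM in CD4+CD127-PD-1+ against 74.9, 85.6 and 111 CPM in CD4+CD127+PD-1- libraries, and 76.6, 94.8 and 85.6 CPM in CD8+CD127-PD-1+ against 93.3, 95.0 and 134 CPM in CD8+CD127+PD-1- libraries. Eif5a overlapped between states and was not called in either lineage (log2 fold changes -0.23, adjusted p = 0.532, and -0.33, adjusted p = 0.257). Eif5b, which joins the ribosomal subunits, had 147 and 152 CPM in CD4+CD127-PD-1+ against 145, 146 and 149 CPM in CD4+CD127+PD-1- libraries, and 163, 169.7 and 169 CPM in CD8+CD127-PD-1+ against 162, 146 and 162 CPM in CD8+CD127+PD-1- libraries. The CD4 groups overlapped, the CD8 groups were barely apart, and Eif5b was not called (adjusted p = 0.893 and 0.505).

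**Figure D4:**
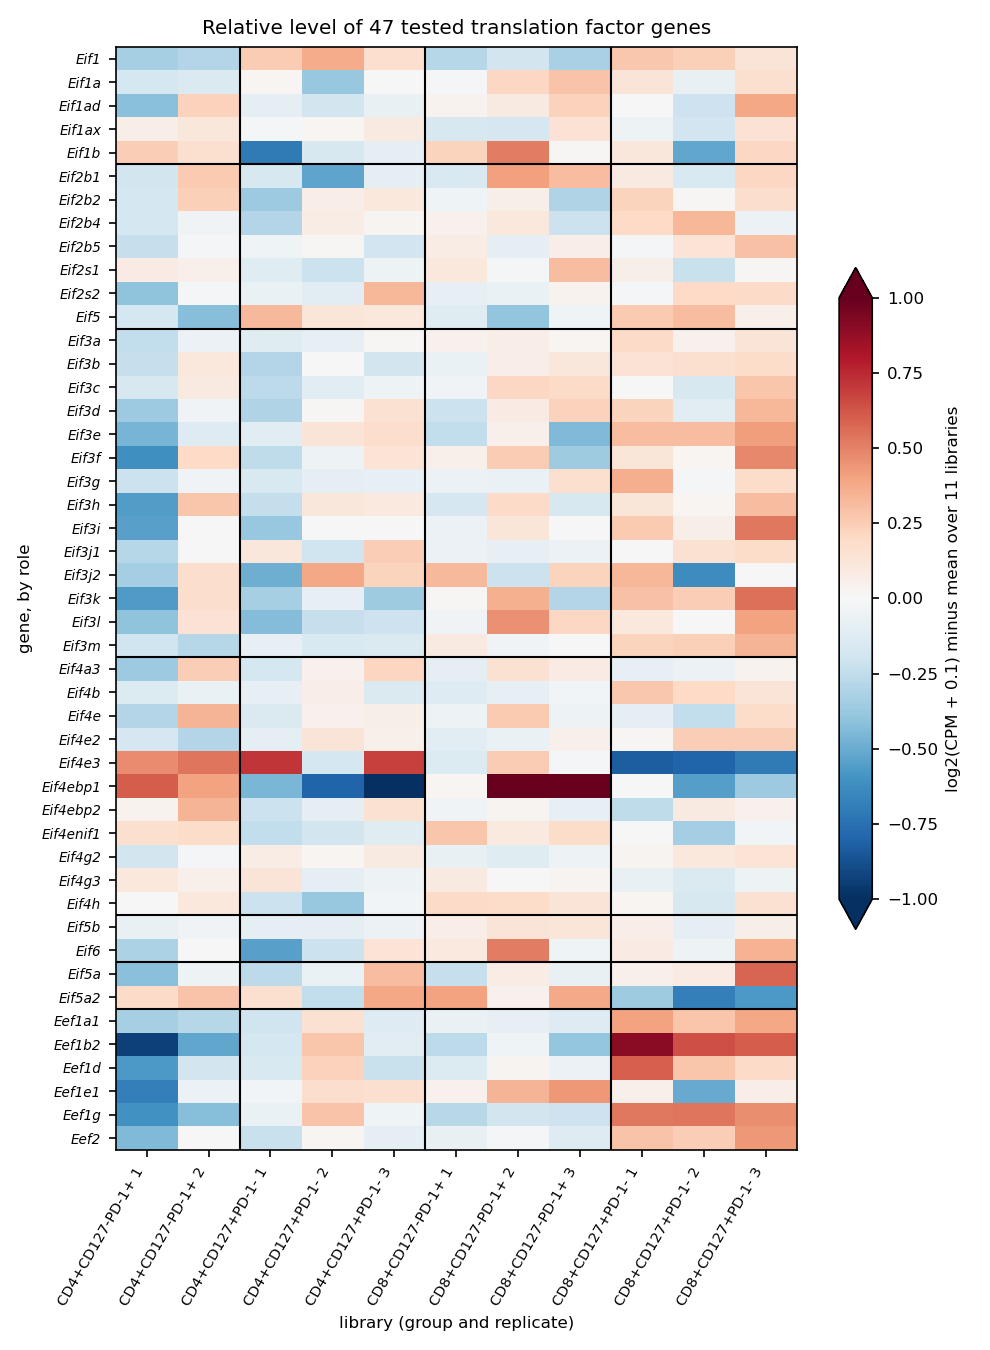
Relative level of the 47 tested factor genes (lines of the grid, by role) in each of the 11 libraries (columns, by group and replicate), as log2(CPM + 0.1) minus the gene's mean over the libraries. Eef1b2 and Eef1g are low in the CD4+CD127-PD-1+ columns and high in the CD8+CD127+PD-1- columns, and CD4+CD127-PD-1+ replicate 1 is the lowest column for 23 genes.

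The lineages were compared within each state. In CD127+PD-1- cells, 4 of 47 members were lower and 1 was higher in CD4 than in CD8 cells, 10.6% of the members, against 4.42% of all tested genes (2.76% higher, 1.66% lower). The median log2 fold change was -0.19 over the members and -0.01 over all tested genes, and 38 of 47 were negative. The libraries did not overlap for 13 members that were lower (10.9% of all tested genes) and 2 that were higher (11.9%). Lower were Eef1a1, Eef1b2, Eef1g and Eif3m, and higher was Eif4e3. None of the 12 macrophage or 6 plasmacytoid dendritic cell markers was called between these groups. Of 10 T cell markers, 2 were higher in CD4 cells. Of 3 tested endothelial markers, Pecam1 was higher in CD4 cells. The endothelial sum was 121 to 154 CPM in CD4+CD127+PD-1-, against 65.3 to 96.1 CPM in CD8+CD127+PD-1- libraries. Most of this sum was Pecam1, with means of 126 and 71.2 CPM in that order. The means of Cdh5 (8.32 and 8.79 CPM) and Kdr (4.41 and 4.02 CPM) were similar in the lineages. Of 5 NK cell markers, Eomes was lower in CD4 cells, and the NK sum was 82.6 to 138 CPM in CD4+CD127+PD-1-, against 109 to 182 CPM in CD8+CD127+PD-1- libraries. The part of these differences was not tested. The count of lower members was 0 without CD4+CD127+PD-1- replicate 1 or 3 or CD8+CD127+PD-1- replicate 1 or 2, was 1 without CD8+CD127+PD-1- replicate 3, and was 2 without any 1 of the CD8+CD127-PD-1+ libraries. Eif4e3 was called higher in all of these fits.

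The values of these genes in CD127+PD-1- cells are given above for all but Eif3m. Eif4e3 was 2.36-fold higher in CD4 than in CD8 cells (log2 fold change 1.24, SE 0.216, adjusted p = 0.00651, edgeR), and every CD4+CD127+PD-1- library, the lowest at 18.4 CPM, was above every CD8+CD127+PD-1- library, the highest at 12.7 CPM. This call held in all 20 alternative settings. Eef1b2 was lower (log2 fold change -0.71, SE 0.157, adjusted p = 0.0251), and the call was lost without CD4+CD127+PD-1- replicate 1 (0.109) or 3 (0.104) or CD8+CD127+PD-1- replicate 1 (0.0959) or 2 (0.0502). Eef1g was lower (-0.44, SE 0.108, adjusted p = 0.0409), and of the fits without a library the call held only in those without either CD4+CD127-PD-1+ library or CD4+CD127+PD-1- replicate 2, with adjusted p-values of 0.0507 to 0.153 in the other 8. Eef1a1 was lower (-0.41, SE 0.102, adjusted p = 0.0447), and its call held only without CD4+CD127-PD-1+ replicate 2 or CD4+CD127+PD-1- replicate 2, with 0.0546 to 0.166 in the other 9. Eef2 had a similar estimate and was not called (-0.42, SE 0.119, adjusted p = 0.0755). Eif3m (ENSMUSG00000027170, chromosome 2, 104999656 to 105017080), which encodes a small eIF3 subunit, had 81.2, 77.3 and 78.0 CPM in CD4+CD127+PD-1-, against 101, 101 and 109 CPM in CD8+CD127+PD-1- libraries. In CD127-PD-1+ cells it had 75.2 and 70.7 CPM in CD4, against 91.9, 84.2 and 86.6 CPM in CD8 libraries. The lineages were apart in both states, and the difference was called in the CD127+PD-1- state, where the log2 fold change was -0.40 (SE 0.0883, adjusted p = 0.0262), and not in CD127-PD-1+ cells (-0.26, SE 0.0992, adjusted p = 0.261). Leaving out any 1 of the 6 CD127+PD-1- libraries lost the call, with adjusted p-values of 0.0572 to 0.095.

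In CD127-PD-1+ cells none of 47 members was called between CD4 and CD8 cells, against 2.44% of all tested genes (1.6% higher, 0.843% lower). An unadjusted p under 0.05 was found for 5 of them, against 13.3% of all tested genes, and DESeq2 and limma-voom also called 0 members. The members' median was -0.14 and 42 of 47 log2 fold changes were negative, all 14 of the eIF3 genes among them. This median depended on 1 library: it was -0.01 without CD4+CD127-PD-1+ replicate 1 and -0.28 without CD4+CD127-PD-1+ replicate 2. Libraries did not overlap for 11 members that were lower in CD4 cells (13.5% of all tested genes) and 2 that were higher (14.3%). Between these groups, 2 of 6 neutrophil and 1 of 5 NK cell markers were lower in CD4 cells, and 1 of 10 T cell markers was higher. No marker of the other lists was called. B cell marker sums were 10.6 to 71.4 CPM in CD4, against 79.4 to 220 CPM in CD8 libraries. Mitochondrial ribosomal RNA took 30.8% of counts in the CD4, against 35.7 to 40.8% in the CD8 libraries. The part of these differences in the members' values was not tested. The CD4 and CD8 state changes were compared directly in the state by lineage contrast, in which no member was called (0.00611% of all tested genes). Unadjusted p-values under 0.05 were found for 3 members, Eif4e3, Eif5a2 and Eef1e1, against 5.48% of all tested genes, and DESeq2 and limma-voom called 0 members. The difference for Eef1e1 was -0.85 (SE 0.375, unadjusted p = 0.0438, adjusted p = 0.887, edgeR).

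Genes that work with the factors were counted in the same fit. Cytosolic ribosomal proteins, whose messages share the TOP motif, were lower for 20 of 70 tested genes in CD4 and 61 of 70 in CD8 cells (4.87% and 6.56% of all tested genes), and none was higher. The all-gene medians and called shares of these state comparisons, given above, apply to each list that follows. The ribosomal protein medians were -0.57 and -0.74, further from 0 than those of the elongation factors. Rpl31, of the large subunit, had log2 fold changes of -0.73 (adjusted p = 0.00449, edgeR) and -0.75 (adjusted p = 0.0011), and its calls held without any 1 library. Rpl5, of the 5S ribonucleoprotein, was lower in CD4 (-0.81, adjusted p = 0.00737) and CD8 cells (-0.91, adjusted p = 0.00112), Rps24 in CD4 cells (-0.85, adjusted p = 0.0111) and Rpl4 in CD8 cells (-0.64, adjusted p = 0.000995). The CD4 calls of Rpl5 (0.0671) and Rps24 (0.0752) were lost without CD4+CD127-PD-1+ replicate 1, and that of Rps24 also without replicate 2 of that group (0.0516). The CD4 count was 1 without CD4+CD127-PD-1+ replicate 1, 7 without CD4+CD127+PD-1- replicate 2 and at most 23 in the other fits, and the CD8 count was 21 without CD8+CD127-PD-1+ replicate 3 and up to 65. Between lineages, 3 of 70 were lower in CD4 than CD8 cells of the CD127+PD-1- state, with 0 to 22 on leaving out a library. Many ribosomal protein genes have near-identical processed copies, so their reads are assigned uncertainly.

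Of 10 tested enzymes that modify the factors, Dph5 was lower in both lineages and no other was called, with list medians of -0.06 in CD4 and -0.36 in CD8 cells. Dph5 encodes a methyltransferase that builds diphthamide, a modified histidine on eEF2. It averaged 17.4 ± 1.60 CPM (SD, n = 2) in CD4+CD127-PD-1+ against 31.9 ± 3.04 CPM (n = 3) in CD4+CD127+PD-1- libraries, and 17.8 ± 1.68 CPM in CD8+CD127-PD-1+ against 45.3 ± 6.77 CPM in CD8+CD127+PD-1- libraries (n = 3 each). The log2 fold changes were -0.88 (SE 0.167, adjusted p = 0.00737, edgeR) and -1.35 (SE 0.148, adjusted p = 0.000202). The CD8 call held without any 1 library, and the CD4 call was lost (adjusted p = 0.0562) when CD4+CD127-PD-1+ replicate 2 was left out. Eef2k, the kinase that inhibits eEF2, had log2 fold changes of 0.05 (adjusted p = 0.945) and -0.94 (adjusted p = 0.0579).

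Among 15 ribosome biogenesis genes, 2 were lower in CD4 and 4 in CD8 cells, and none was higher in either, beside 4.87% and 6.56% of all tested genes that were lower. Their medians were -0.26 and -0.29. Wdr12, part of a complex that matures the large subunit, was lower in both (log2 fold changes -1.57, adjusted p = 0.00286, and -1.15, adjusted p = 0.00453, edgeR), and these calls held without any 1 library. Ncl, the nucleolar protein nucleolin, was lower in CD4 (-0.40, adjusted p = 0.0248) and CD8 cells (-0.39, adjusted p = 0.0119), and Npm1, nucleophosmin, in CD8 cells (-0.52, adjusted p = 0.00867). The CD4 call of Ncl was lost without any 1 of CD4+CD127-PD-1+ replicates 1 and 2 and CD4+CD127+PD-1- replicates 2 and 3 (adjusted p-values up to 0.118). In the CD127+PD-1- lineage comparison, Myc, a transcription factor that drives ribosome production, was lower in CD4 cells (-1.33, adjusted p = 0.00211).

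The 4 eIF2 kinases, which halt initiation under stress, had 0 called in CD4 and 1 higher in CD8 cells, with a median of 0.13 in both. That 1 was Eif2ak2, the double-stranded RNA sensor PKR (log2 fold change 0.86, adjusted p = 0.0283, edgeR), whose call was lost without CD8+CD127-PD-1+ replicate 3 (0.119) or CD8+CD127+PD-1- replicate 2 (0.0834) or 3 (0.0786). Of 16 genes of the integrated stress response, which follows eIF2 phosphorylation, 2 were higher and 1 lower in CD4 cells, and 4 were higher and 1 lower in CD8 cells. These counts stand beside 6.81% of all tested genes higher and 4.87% lower in CD4 cells, and 9.05% higher and 6.56% lower in CD8 cells, and the medians were 0.13 and -0.10. Ppp1r15a, which encodes a phosphatase subunit that restores eIF2, was lower in CD4 (-0.82, adjusted p = 0.00723) and CD8 cells (-0.77, adjusted p = 0.00309), and the CD4 call was lost without CD4+CD127-PD-1+ replicate 2 (0.0586). In CD8 cells Slc7a11, a cystine transporter gene, averaged 13.8 ± 10.1 CPM in CD127-PD-1+ and 0.336 ± 0.344 CPM in CD127+PD-1- libraries (SD, n = 3 each; adjusted p = 0.00147). Nupr1, a stress-induced nuclear protein gene, averaged 3.32 ± 1.18 CPM in CD8+CD127-PD-1+ and 0.215 ± 0.198 CPM in CD8+CD127+PD-1- libraries (adjusted p = 0.00192). Asns, which encodes asparagine synthetase, averaged 4.83 ± 0.495 CPM in CD8+CD127-PD-1+ and 1.14 ± 0.161 CPM in CD8+CD127+PD-1- libraries (adjusted p = 0.00236), and the CD8 calls of these 3 genes held without any 1 library. In CD4 cells the higher genes were Psat1, of serine synthesis (log2 fold change 1.04, adjusted p = 0.0149), and Chac1, which degrades glutathione (3.51, adjusted p = 0.0358). Chac1 averaged only 1.06 ± 0.307 CPM in CD4+CD127-PD-1+ (n = 2) and 0.0863 ± 0.0831 CPM in CD4+CD127+PD-1- libraries (n = 3). The size of its fold change is therefore uncertain. Psat1 lost its call without CD4+CD127-PD-1+ replicate 2 (0.15) or CD4+CD127+PD-1- replicate 1 (0.0552), and Chac1 without any 1 CD4 library or CD8+CD127-PD-1+ replicate 3 (0.0509 to 0.156). These genes moved beside the macrophage and neutrophil markers given above, and the part of those cells was not tested. Atf4, the central transcription factor of the response, was not called (log2 fold changes -0.40, adjusted p = 0.0687, and -0.34, adjusted p = 0.0664).

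Of 25 mTORC1 pathway genes, 2 were higher and none lower in CD4 cells, and 3 were higher and 2 lower in CD8 cells. Over all tested genes 11.7% were called in CD4 and 15.6% in CD8 cells, so the counts of 2 and 5 of 25 lay near the background, and the medians were 0.09 and -0.06. Pdcd4, which encodes an inhibitor of the eIF4A helicase, was lower in CD8 cells (log2 fold change -0.70, adjusted p = 0.00951, edgeR) and its call held without any 1 library, while in CD4 cells the value was -0.36 (adjusted p = 0.215). Rragd, a Rag GTPase that recruits mTORC1 to lysosomes, was lower (-1.28, adjusted p = 0.0171) and Mknk1, a kinase of eIF4E, was higher in CD8+CD127-PD-1+ cells (0.68, adjusted p = 0.0366). The call of Rragd was lost without CD8+CD127-PD-1+ replicate 2 (0.0686) or CD8+CD127+PD-1- replicate 3 (0.0557), and that of Mknk1 without CD4+CD127+PD-1- replicate 1, CD8+CD127-PD-1+ replicate 2 or 3 or any 1 CD8+CD127+PD-1- library (0.0531 to 0.127). In CD4 cells the higher genes were Tbc1d7, a subunit of the complex that inhibits mTORC1 (1.52, adjusted p = 0.0185), and Rragc, another Rag GTPase (0.60, adjusted p = 0.0404). Without CD4+CD127-PD-1+ replicate 1 both were lost (0.0713 and 0.337). Tbc1d7 was also lost without CD4+CD127-PD-1+ replicate 2 or CD4+CD127+PD-1- replicate 2 or 3, and Rragc without any 1 CD4+CD127+PD-1- library, CD8+CD127-PD-1+ replicate 2 or 3 or CD8+CD127+PD-1- replicate 1. Larp1, the TOP message regulator, was called in neither state comparison (-0.31, adjusted p = 0.0704, and -0.28, adjusted p = 0.0545), and was lower in CD4 than CD8 cells in the CD127+PD-1- state (-0.41, adjusted p = 0.0226) and in the CD127-PD-1+ state (-0.44, adjusted p = 0.0431). The CD127-PD-1+ call held only without CD4+CD127+PD-1- replicate 2 or 3, with 0.0525 to 0.224 in the other 9 fits. The CD127+PD-1- call was lost in 5 of the 11 fits without a library, those without CD4+CD127+PD-1- replicate 1 or 2 or any 1 CD8+CD127+PD-1- library (0.0579 to 0.0809). Of the remaining lists, 1 of 5 poly(A) binding genes (Paip2b, -0.53, adjusted p = 0.0294) and 1 of 9 tested termination and rescue genes (Hbs1l, -0.44, adjusted p = 0.0243) were lower in CD8 cells and none was called in CD4 cells. The medians in CD4 and CD8 cells were -0.15 and -0.29 for poly(A) binding and 0.02 and 0.09 for termination and rescue. Both calls were lost without CD8+CD127-PD-1+ replicate 2 or 3 or CD8+CD127+PD-1- replicate 2, that of Paip2b also without CD8+CD127+PD-1- replicate 1 and that of Hbs1l without replicate 3 of that group (0.0526 to 0.105). None of 10 mitochondrial translation factors and none of 21 tested aminoacyl-tRNA synthetase genes was called between states, with medians of 0.15 and 0.16 for the mitochondrial factors and 0.04 and 0.09 for the synthetases, in CD4 and CD8 cells in that order.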

How the data were processed

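Total RNA (2 ng) of each sorted population was amplified by single primer isothermal amplification and sequenced as 75-base single reads, per the labels' protocols. The authors deposited raw read counts per gene, and the submitters' processing notes name STAR, featureCounts and the build GRCm38. Tool versions, annotation release and strand setting were not given in the sources used here. With no strand setting known, overlapping and antisense genes may share reads, and reads of close copies (Eif1 and Eif1b, Eif3j1 and Eif3j2, Eef1a1 and its pseudogenes) may be split between them. Of the table's columns 11 matched the labelled samples and 1 further, unlabelled column was left unused. Coordinates and exon lengths came from GENCODE M21, in which 45229 of the 46078 gene identifiers had an entry.

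The count model was fitted with edgeR 4.0.16 in R 4.3.3. The default filter of filterByExpr left 16365 genes, libraries were scaled with trimmed means of M values (TMM), and a quasi-likelihood model with 1 mean per group was fitted to all 11 libraries. Benjamini-Hochberg adjustment ran over all tested genes, calls were made at 0.05, and p-values measure the spread between pools. The standard error is the log2 fold change divided by the square root of the test's F value. The procedure was tested on simulated data. Changes planted there were larger than those of most called members, so that test does not bear on calls of their size. Comparisons were CD127-PD-1+ over CD127+PD-1- in CD4 and in CD8 cells, CD4 over CD8 in each state, and the difference of the state changes.

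The members and the gene lists were chosen with earlier results of these data known, so no p-value is given for a list; lists are described by counts and medians beside all tested genes. Named were every called member, the most abundant member of a role group and close paralogues. Up to 3 called genes of each other list were named in each state comparison, and some were followed into other comparisons. Of list genes called between lineages, only Myc and Larp1 are described. Other such genes in CD127+PD-1- cells were Eif2ak3 and the synthetase gene Eprs (higher in CD4 cells), and Npm1, Rpl4, Rpl10a and Rpl13 (lower). In CD127-PD-1+ cells they were Slc7a11 and Nupr1 (lower in CD4 cells). Eef2k and Atf4 were added after their values were seen. Alternatives were RLE and upper-quartile scaling, no filter, DESeq2 1.42.0, limma-voom (limma 3.58.1), only the compared groups, no mitochondrially encoded genes, blocks by replicate number, and leaving out each library.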

Additional observations from a re-analysis of the deposited data

How the results depend on the processing

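Single members were followed only in comparisons where their adjusted p in the main edgeR fit was under 0.1. Over the 20 alternative settings none of these changed direction. They were chosen for changes large against the spread, so a kept direction was likely in advance and does not bear on other members. Of 500 results of single members 385 kept their side of the threshold, 89 lost a call and 26 gained one. Eif1 in both lineages, Eef1b2 and Eef1g in CD8 cells and Eif4e3 between the CD127+PD-1- lineages were called in all 20, while Eif4ebp1 in CD8 cells was called in 3, Eef1a1 between lineages in 8 and Eif5 in CD4 cells in 10. Members higher in the CD4 state comparison numbered 1 with DESeq2, and members lower numbered 1 with only the compared groups in the fit. In the CD8 state comparison 0 members were higher with the replicate block by description number, as Eif4e3 (adjusted p = 0.0672), Eif4ebp1 (0.204) and Eif5a2 (0.0997) were no longer called; Eef1a1 (0.0589) and Eef2 (0.0819) also missed the threshold there. In that comparison 11 were lower with upper-quartile scaling, which moved the median of all tested genes to -0.0905. Leaving out a library gave 0 to 1 members higher and 1 to 4 lower in CD4 cells, 0 to 2 higher and 3 to 7 lower in CD8 cells, and 1 higher and 0 to 5 lower between the CD127+PD-1- lineages. The members' medians then ran from -0.173 to 0.0714 (CD4 state), -0.13 to -0.067 (CD8 state), -0.281 to -0.0149 (lineage, CD127-PD-1+), -0.256 to -0.12 (lineage, CD127+PD-1-) and -0.0656 to 0.154 (state by lineage). The causes were not tested. Over all genes, 400 were called between the CD127-PD-1+ lineages, against 791 without a filter, 717 with DESeq2 and 214 with only the compared groups; 723 between the CD127+PD-1- lineages, against 1215 without a filter and 1190 with DESeq2; and 1 in the state by lineage contrast, against 85 without a filter and 55 with DESeq2. Leaving out a library gave 976 to 2051 calls over all genes in the CD4 state comparison (1912 with all), 1475 to 2682 in the CD8 one (2555), 126 to 443 between the CD127-PD-1+ lineages, 378 to 764 between the CD127+PD-1- lineages and 0 to 5 in the state by lineage contrast. Libraries with the same number did not deviate together in every pair, and neither number was used to pair them in the main fit. By title number the correlations of 15 pairs ran from -0.209 to 0.318 (median 0.00109, 7 over 0.1). By description number those of 12 pairs were all positive, from 0.00109 to 0.325 (median 0.153, 10 over 0.1). Whether libraries of the same description number share mice was not tested, and the CD8 calls lost with that block are given above. Counts of 10 to 63 per library limit Eif4ebp1 in depth.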
